A study of Mus musculus with 16 samples.

Results

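The 37 genes described here are transcripts known for their expression in hepatocytes, measured in neutrophils that had been sorted from mouse liver. They were chosen by name, and 36 of the 37 symbols matched a row of the count table; the symbol Ass1l matched no gene name. Of these 36, 34 had at least 10 counts in at least 8 of the 16 libraries and were analysed, beside 10063 genes in all that passed this minimum out of 54532 listed. Serpina1e and Mup3 were the members nearest above it, with 10 or more counts in 13 and 11 libraries. Cyp3a11 and Cps1 did not pass, with 10 or more counts in 5 libraries and in 1 library.

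The libraries came from 8 mixed bone marrow chimeras, numbered 2 to 9, on the C57BL/6 strain. Wild-type hosts were irradiated with about 1000 cGy and rebuilt with 50% CD45.1 wild-type (WT) and 50% CD45.2 Ifngr1-/- (Ifngr1_KO) marrow, so the hepatocytes were those of a wild-type host in every mouse. After 8 weeks all mice were given flank tumours of MC38, a colon carcinoma line, and 1 week later an agonist antibody against CD40; ages are not stated in the labels. The livers were taken 2 days after the antibody, neutrophils were separated by their CD45 form, and each mouse gave 1 WT and 1 Ifngr1_KO library made by oligo-dT priming of 1 ng of RNA. The donor of the marrow, the CD45 form and the gate of the sort all changed with genotype and cannot be told apart from it.

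The hepatocyte is the parenchymal cell of the liver and makes most of the proteins of blood plasma, among them albumin, the fibrinogen chains, the protease inhibitors and the apolipoproteins. These mRNAs are very abundant in liver, and they are known to leak from broken cells into suspensions made from that organ. During inflammation the liver raises its output of acute phase proteins, among them serum amyloid A, hemopexin and fibrinogen. Factors of the C/EBP family bind near the start sites of many of these genes.

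The promoters of 4 members are printed to show the sequence that flanks the start site of genes that rose and fell together across the libraries. Promoters from RefSeq (GRCm38.p6) were used for 28 of the 37 members, and the other members were not searched. Each run gives up to 250 bases upstream of the RefSeq start, 5′ to 3′ along the gene, and is cut where the GENCODE gene begins. The runs of Hpx and Saa2 are therefore 229 and 207 bases and end before the RefSeq start. Capitals mark the C/EBP motif TTGCNNAA on either strand.
Alb (chr5:90460620-90460869, plus strand): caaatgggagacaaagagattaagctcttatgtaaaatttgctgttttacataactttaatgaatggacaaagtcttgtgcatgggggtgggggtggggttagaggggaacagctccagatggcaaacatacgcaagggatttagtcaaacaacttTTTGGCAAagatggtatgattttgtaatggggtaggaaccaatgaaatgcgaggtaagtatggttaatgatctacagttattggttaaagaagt
Fgb (chr3:83049864-83050113, minus strand): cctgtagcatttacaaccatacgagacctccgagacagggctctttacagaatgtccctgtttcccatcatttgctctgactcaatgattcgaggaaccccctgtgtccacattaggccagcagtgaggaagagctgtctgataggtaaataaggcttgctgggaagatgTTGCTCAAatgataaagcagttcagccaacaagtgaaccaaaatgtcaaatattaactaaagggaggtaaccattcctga
Hpx (chr7:105600138-105600366, minus strand): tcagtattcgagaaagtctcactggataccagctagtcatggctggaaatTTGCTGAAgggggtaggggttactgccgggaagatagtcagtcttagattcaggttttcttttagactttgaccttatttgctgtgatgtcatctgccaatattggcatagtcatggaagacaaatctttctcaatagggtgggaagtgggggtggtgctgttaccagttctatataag
Saa2 (chr7:46751583-46751789, plus strand): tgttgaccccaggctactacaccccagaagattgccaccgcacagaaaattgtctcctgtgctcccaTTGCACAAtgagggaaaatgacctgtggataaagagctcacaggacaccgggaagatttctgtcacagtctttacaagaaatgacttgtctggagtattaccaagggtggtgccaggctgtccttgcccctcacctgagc

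The first base of the C/EBP motif lay at -94 in Alb, -80 in Fgb, -200 in Hpx and -183 in Saa2, counted from the RefSeq start. TTGCNNAA was found on either strand in 14 of the 28 member windows (50.0%) and in 10.8% of the windows of 27025 genes. The 14 include Serpina1b, Serpina1d and Serpina1e, and Saa1 with Saa2. These are related genes that share transcript sequence, so the member windows are not all independent. The STAT motif TTCNNNGAA was found in 4 of 28 (14.3%) against 8.13%. A window can hold more than 1 motif and matches can overlap, and a match describes letters in a window and not a bound site. Among Alb itself and the members whose level followed it closely (Pearson's r over 0.8, as measured below), 8 of 16 windows held TTGCNNAA. Among members with r under 0.5 it was 3 of 5.

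The libraries held 12.5 to 21.7 M estimated counts. Levels are given as CPM, counts divided by the size of the library after scaling by the trimmed mean of M values (TMM). Of 16 neutrophil markers 15 passed the minimum, with a summed level over the list of 38642 to 68888 CPM in WT and 34315 to 94951 CPM in Ifngr1_KO. Ifngr1, the targeted gene, was at 228 to 351 CPM in WT and 37.6 to 119 CPM in Ifngr1_KO. The share of mitochondrially encoded genes was 0.815 ± 0.357% in WT libraries and 2.02 ± 1.09% in Ifngr1_KO libraries (SD, n = 8). The Ifngr1_KO library of mouse 7 stood apart with 4.10%. It also held the lowest sum of Kupffer cell markers (980 CPM, against 2245 to 3202 CPM in the other 15 libraries) and the highest sum of erythroid markers (857 CPM). Most of the Kupffer cell sum was Csf1r, Hmox1 and Slc40a1, with means of 1394, 737 and 464 CPM. The other tested genes of that list averaged 56.3 CPM or less, so the sum says little about them. The genotype values and the differences between mice are given below also without mouse 7.

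The 34 members together took 0.158 to 0.733% of a library. Summed over the members, WT libraries held 3551 ± 2123 CPM and Ifngr1_KO libraries 3618 ± 2419 CPM (SD, n = 8). The sum ran from 1508 to 6898 CPM in WT and from 1511 to 7870 CPM in Ifngr1_KO, so the groups overlapped over nearly their whole range. In a bulk sample, fewer hepatocyte-derived cells and less of their RNA per library cannot be told apart, and which cell each read came from was not tested.

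Longer mRNAs give more fragments, so levels were ranked between genes per kilobase of exon, and the CPM values elsewhere follow a gene across libraries. The length is that of all annotated exons of a gene together, which can exceed the length of the mRNA present. It was 2518 bases for Saa2 and 3810 for Fgb, and its effect on the ranks was not tested. On the length-corrected scale Hpx, which encodes the heme scavenger hemopexin, stood far above all other members at 1102 CPM per kb, 40.9 times Alb. Trf, the iron carrier transferrin, followed at 143, and Apoa1, the main protein of high-density lipoprotein, at 93.4. Apoe, Saa2, Saa1 and Apoa2 lay between 64.7 and 47.7 CPM per kb. Alb, known as one of the most abundant mRNAs of liver, came 13th at 26.9. From Serpina1c (39.3) down to Itih4 (13.8) 15 members lay close together on both sides of Alb.

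All 4 matched members whose proteins stay inside the cell were among the 7 lowest. Cps1, the first enzyme of the urea cycle and an abundant liver mRNA, was at 0.018 CPM per kb, with 13 counts in its highest library and 0 in 11 of 16. Cyp3a11, a drug-metabolising cytochrome P450, was at 0.158 and had 0 counts in 9 libraries. Cyp2e1, the ethanol-inducible P450, was at 1.11, and Fabp1, the fatty acid-binding protein of the hepatocyte cytosol, at 2.25. Apob, a very long mRNA for the structural protein of very low-density lipoprotein, was at 0.831. Rbp4, the plasma carrier of retinol, was at 2.62, and Mup3, a major urinary protein, at 2.28.

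**Figure D1:**
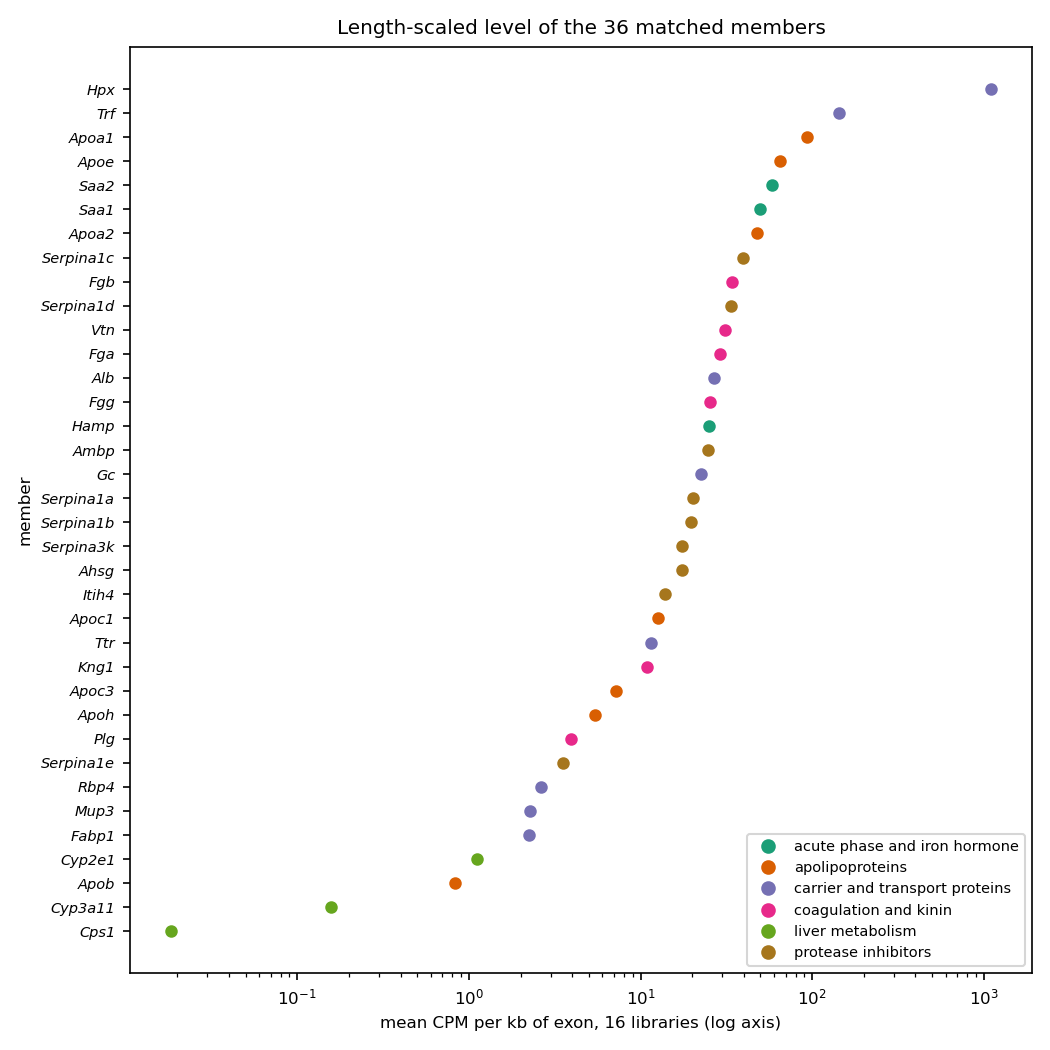
Mean level of each matched member over the 16 libraries, in CPM per kb of exon on a log axis, coloured by the role of the protein. Hpx lies at 1102 and Alb at 26.9, and the 3 matched members of liver metabolism lie at 1.11 or lower.

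Alb was high in mice 4 and 5 and low in mouse 2, in libraries of both genotypes. From mouse 2 to mouse 9, WT Alb was 14.6, 34.8, 159.5, 98.7, 61.7, 38.2, 28.2 and 38.2 CPM. Ifngr1_KO Alb was 9.06, 35.3, 145, 139, 64.3, 49.5, 58.6 and 33.3 CPM in the same order. Over the 8 mice, log2 CPM of Alb in the WT library correlated with that in the Ifngr1_KO library at Pearson's r = 0.915 (exact permutation p = 0.00243, two-sided) and Spearman's rho = 0.786 (exact permutation p = 0.0279, two-sided). Without the 2 mice farthest from the median, mice 2 and 4, r was 0.806 over 6 mice. Alb is the only gene for which this relation was tested, and the 2 libraries of a mouse share its liver.

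Hpx, like Alb, was highest in mice 4 and 5 and lowest in mouse 2 in both genotypes, with a Spearman's rho with Alb over 8 mice of 0.76 in WT and 0.81 in Ifngr1_KO. Its WT values from mouse 2 to mouse 9 were 581, 854, 3301, 3324, 1381, 1423, 966 and 755 CPM. Its Ifngr1_KO values were 531, 795, 3423, 4327, 1253, 1394, 994 and 1117 CPM. Mice 4 and 5 lay at 3301 or more in both genotypes and no other library passed 1423. Hpx made up 33.9 to 55.0% of the summed members, and the ratio of Hpx to Alb counts, not corrected for length, moved between 17.0 and 58.6, both ends in Ifngr1_KO libraries, of mice 8 and 2.

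Trf was the other abundant carrier. WT Trf from mouse 2 to mouse 9 was 246, 287, 921, 876, 474, 524, 470.02 and 492 CPM. Ifngr1_KO Trf was 335, 236, 846, 737, 315, 221, 295 and 294 CPM. Mice 4 and 5 were again highest in both genotypes, and in 7 of 8 mice the Ifngr1_KO library held less than the WT library. The remaining carriers with enough counts to follow were Gc, the vitamin D-binding protein, at 41.5 CPM on average, and Ttr, transthyretin, at 13.7 CPM.

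Saa1 and Saa2 encode the acute phase serum amyloid A proteins and had nearly the same profile. WT Saa2 from mouse 2 to mouse 9 was 73.9, 51.5, 249, 301, 131, 119, 87.2 and 117 CPM, and Ifngr1_KO Saa2 was 49.5, 59.9, 229, 313, 122, 221, 93.9 and 136 CPM. WT Saa1 was 54.6, 43.6, 215, 229.7, 104, 113, 66.5 and 109.8 CPM, and Ifngr1_KO Saa1 was 46.1, 55.04, 179, 258, 104, 218, 75.4 and 107 CPM. Beside mice 4 and 5, the Ifngr1_KO library of mouse 7 was high for both. It is the library with the high mitochondrial share, the low Kupffer cell sum and the high erythroid sum. Their part in these values was not tested. Saa1 shares 46.0% of its 31-base words with Saa2, so reads may have been split between them. Hamp, the iron hormone hepcidin, ran from 4.498 to 23.6 CPM, and its 2 highest Ifngr1_KO libraries were those of mice 5 and 7.

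The 3 chains of fibrinogen, the clot protein, rose in the same mice over a narrower range. WT Fgb, the beta chain, was 62.6, 75.6, 249, 214, 115, 125, 85.8 and 105 CPM from mouse 2 to mouse 9, and Ifngr1_KO Fgb was 73.9, 85.0, 229, 245, 117, 133, 84.1 and 88.9 CPM. WT Fga, the alpha chain, was 48.4, 61.4, 209, 132, 82.9, 96.4, 71.2 and 70.5 CPM, and Ifngr1_KO Fga was 59.3, 48.7, 153, 115, 79.96, 45.5, 54.3 and 61.9 CPM. The highest library was 3.98 times the lowest for Fgb, 4.59 times for Fga and 4.42 times for Fgg, the gamma chain, against a median of 7.38 times over the members that were never at 0. Vtn, the adhesive plasma protein vitronectin, ranged 8.89-fold, and Kng1, the precursor of bradykinin, 4.598-fold.

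Apoa1 led the apolipoproteins that followed Alb. WT Apoa1 from mouse 2 to mouse 9 was 40.8, 58.4, 199, 247, 105, 89.3, 74.4 and 73.7 CPM. Ifngr1_KO Apoa1 was 44.4, 45.6, 187, 330.4, 80.5, 121, 67.3 and 83.5 CPM. Only mice 4 and 5 passed 121 CPM. Apoa2, a further protein of high-density lipoprotein, and Apoc1 and Apoc3, small exchangeable apolipoproteins, averaged 25.6, 9.45 and 7.31 CPM and were also highest in mice 4 and 5 in both genotypes, except that the Ifngr1_KO library of mouse 7 (40.6 CPM) held slightly more Apoa2 than that of mouse 4 (40.1 CPM) and the same library more Apoc1 (14.7 against 13.3 CPM).

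Apoe, which encodes the lipid carrier apolipoprotein E and is also known to be made by macrophages, went its own way. WT Apoe from mouse 2 to mouse 9 was 93.99, 122, 124, 40.4, 153, 177, 166 and 7.52 CPM. Ifngr1_KO Apoe was 101, 195, 405, 79.1, 180.4, 224, 129 and 15.7 CPM. It was lowest in mouse 9 and second lowest in mouse 5 in both genotypes, while mouse 5 was at the top for most members. The highest library held 53.8 times the lowest.

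The other members least like Alb had few counts. WT Cyp2e1 from mouse 2 to mouse 9 was 2.47, 1.65, 2.92, 6.397, 5.48, 5.09, 1.48 and 2.61 CPM, and Ifngr1_KO Cyp2e1 was 0.741, 0.6703, 0.587, 1.06, 1.68, 0.164, 2.21 and 3.05 CPM. The Ifngr1_KO library was the lower in 6 of 8 mice, and the groups overlapped. WT Rbp4 was 2.78, 0.953, 2.17, 5.83, 4.09, 4.497, 3.65 and 0.765 CPM, and Ifngr1_KO Rbp4 was 2.11, 3.69, 6.16, 4.31, 2.296, 10.3, 2.77 and 0.0782 CPM, with mouse 9 lowest in both. WT Fabp1 was 0.618, 1.08, 0.417, 1.43, 0.847, 0.958, 1.34 and 1.02 CPM, and Ifngr1_KO Fabp1 was 0.399, 1.94, 1.03, 2.198, 1.23, 2.46, 2.14 and 0.782 CPM. Fabp1 was lowest among WT libraries in mouse 4, where Alb was highest.

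**Figure D2:**
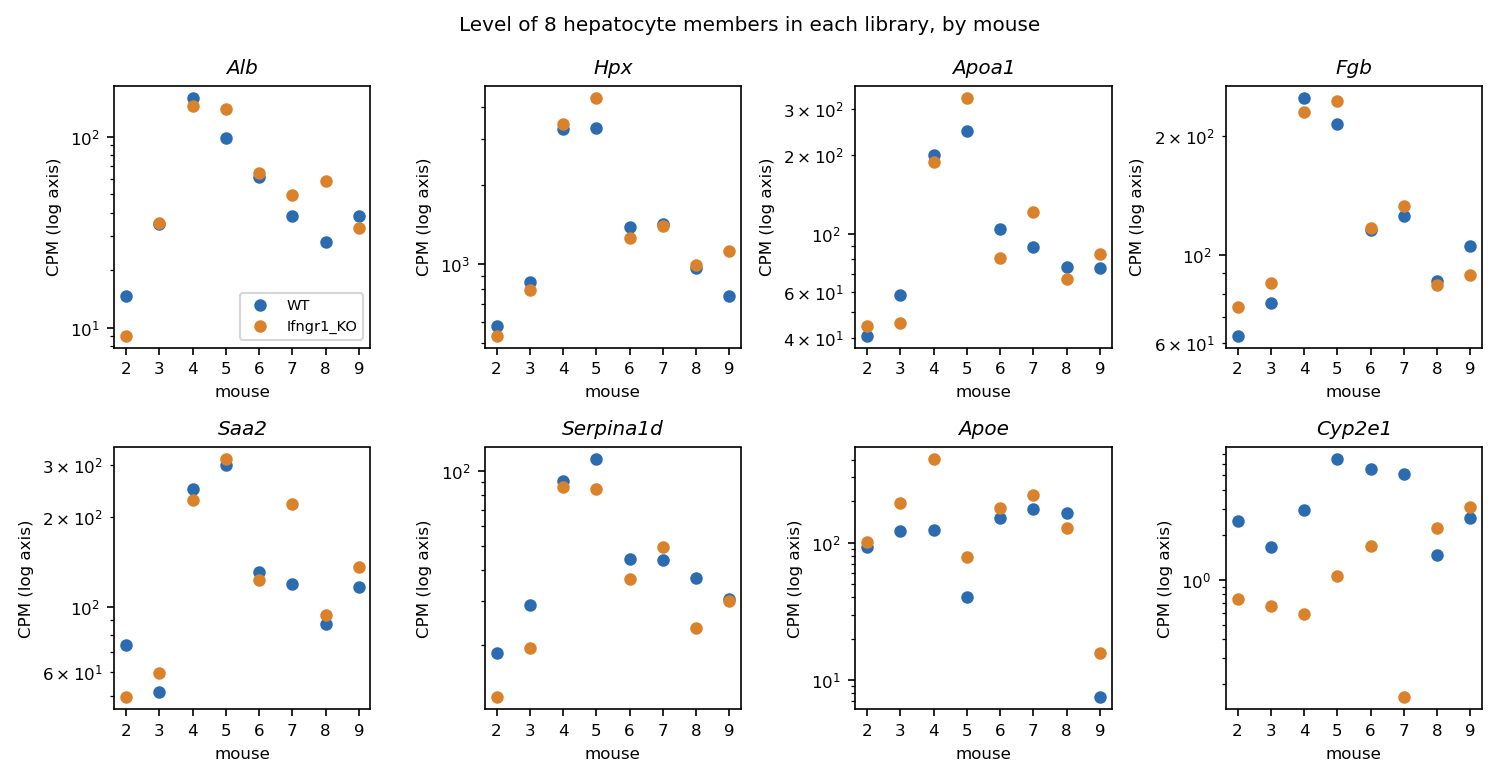
CPM of 8 members in each library (log axis) against the number of the mouse, with 1 WT and 1 Ifngr1_KO point per mouse. Alb, Hpx, Apoa1, Fgb, Saa2 and Serpina1d are highest in mice 4 and 5, Apoe is lowest in mouse 9 and second lowest in mouse 5, and Cyp2e1 shows no order shared by both genotypes.

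Several members are neighbours in the genome. In mm10, Apoe (ENSMUSG00000002985, chromosome 7, 19696109 to 19699188, minus strand) and Apoc1 (ENSMUSG00000040564, chromosome 7, 19689481 to 19692660, minus strand) lie next to each other. Apoc1 followed Alb (r = 0.86 over 16 libraries, measured as described below) and Apoe did not (0.15), and the r between the neighbours was -0.01. Apoa1 (chromosome 9, 46228580 to 46230466) and Apoc3 (chromosome 9, 46232933 to 46235636) also lie side by side, on opposite strands, with r = 0.86 between them. The fibrinogen genes Fgg, Fga and Fgb share chromosome 3 from 83007724 to 83049863. Alb (ENSMUSG00000029368) lies on chromosome 5 from 90460897 to 90476602 and Hpx (ENSMUSG00000030895) on chromosome 7 from 105591613 to 105600137.

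The protease inhibitors were 9 genes. Serpina1a to Serpina1d, copies of the gene for alpha-1-antitrypsin, averaged 37.3 to 53.5 CPM, and all 4 were highest in mice 4 and 5 in both genotypes. Between 44.7% (Serpina1b) and 82.2% (Serpina1c) of their 31-base words occur in other genes, so the split of reads among them is uncertain. Serpina1e, at 5.75 CPM on average, went from 0.0691 CPM in the Ifngr1_KO library of mouse 8 to 23.8 CPM in the WT library of mouse 5. Serpina3k, Ambp (the precursor of alpha-1-microglobulin and bikunin), Itih4 (an inter-alpha-trypsin inhibitor heavy chain) and Ahsg (fetuin-A) averaged 34.9 to 50.9 CPM.

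Mice 4 and 5 were the 2 highest mice in both genotypes for 23 of the 34 members. In WT libraries mouse 4 was among the top 2 for 29 members and mouse 5 for 32, and in Ifngr1_KO libraries each was for 28. Mouse 7 came next in Ifngr1_KO, among the top 2 for 9 members against 2 in WT. At the other end, mouse 2 was among the lowest 2 for 25 members in WT and 28 in Ifngr1_KO, and mouse 3 for 20 in each.

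Likeness across libraries was described by Pearson's r of log2 CPM over the 16 libraries after the mean of each genotype was subtracted. The 16 libraries come from 8 mice, so they are not independent, and all values share the scaling of each library. With Alb, the median r of the other 33 members was 0.82, against -0.04 for all genes tested. It was over 0.8 for 18 of 33 members and for 0.358% of all genes. The highest values were 0.93 for Serpina1c, 0.91 for Hpx, 0.91 for Vtn and 0.91 for Serpina1d. By role, the median was 0.85 for the protease inhibitors, 0.84 for the apolipoproteins, 0.81 for coagulation and kinin proteins, 0.81 for the acute phase group and 0.74 for the carriers.

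Of the 15 members under 0.8, 8 lay between 0.74 and 0.80 and 7 were lower. Apoe had r = 0.15 with Alb, Cyp2e1 0.17, Rbp4 0.30, Fabp1 0.32, Apob 0.39, Serpina1e 0.63 and Mup3 0.66. These 7 averaged 11.6 CPM or less, apart from Apoe at 138 CPM. Among the 561 pairs of members the median r was 0.79, with 263 pairs over 0.8 and 19 under 0. Saa1 with Saa2 was the closest pair at 0.99, then Apoa1 with Serpina1b at 0.98 and Hpx with Serpina1d at 0.97. The nearest member to Apoe was Rbp4, at 0.70.

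**Figure D3:**
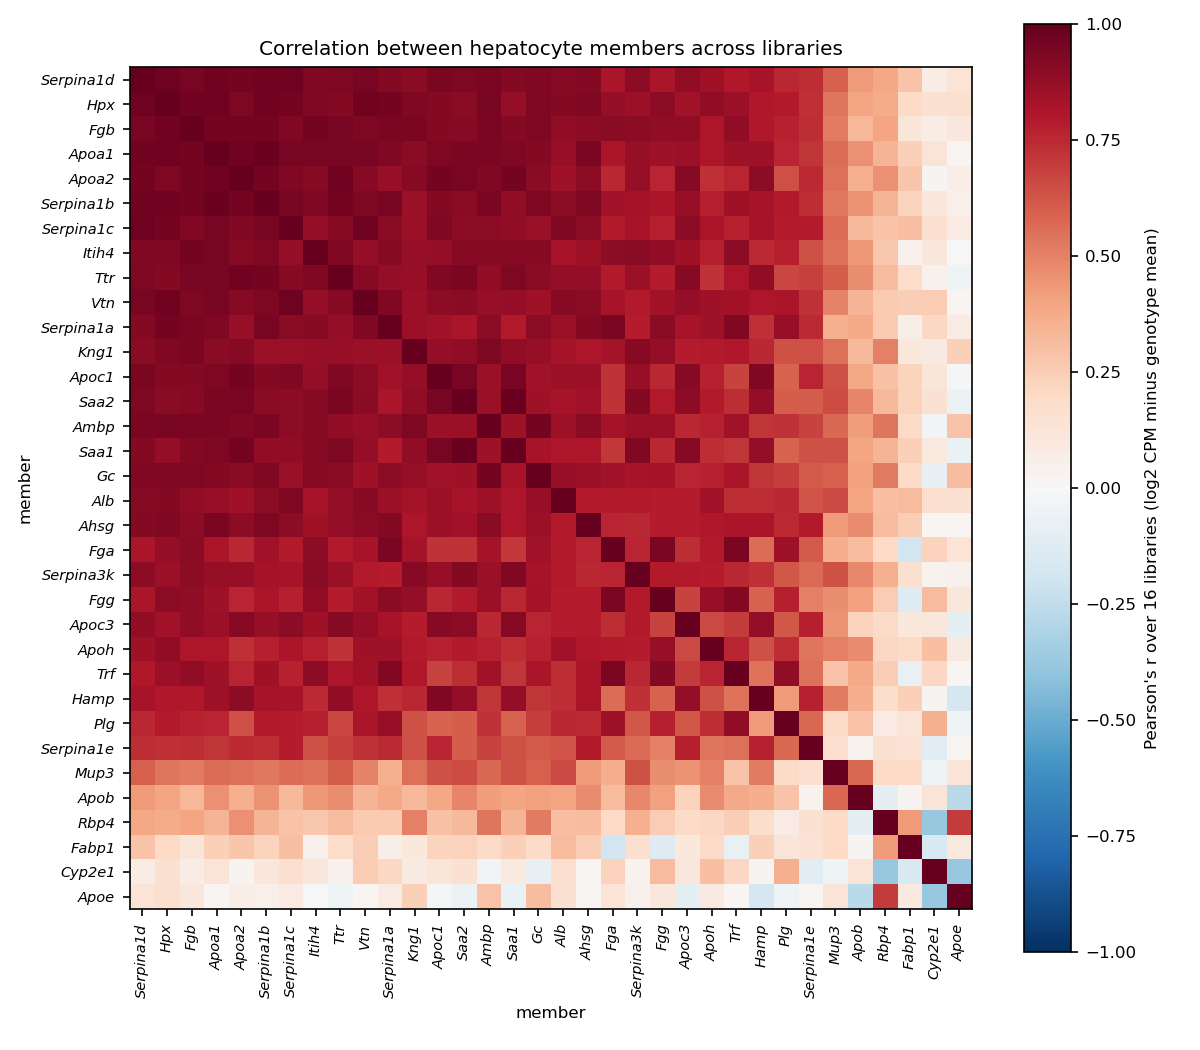
Pearson's r between each pair of the 34 members over 16 libraries (log2 CPM minus the genotype mean), ordered by median r with the other members. A block of high values runs from Serpina1d to Serpina1e, and Mup3, Apob, Rbp4, Fabp1, Cyp2e1 and Apoe stand outside it.

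Each member's WT values were also set against its Ifngr1_KO values over the 8 mice. The median r over members was 0.89, against 0.199 over all genes, and 31 of 34 members were over 0.5, against 23.9% of all genes. Fgb and Hpx were at 0.97. Apoe was at 0.91, although its r with Alb was 0.15. The 3 members under 0.5 were Apob (0.16), Mup3 (0.005) and Cyp2e1 (-0.26). Mup3 was at 0 in the Ifngr1_KO libraries of mice 2 and 3, where the WT libraries held 1.03 and 0.699 CPM.

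The differences between mice were tested for each gene in an edgeR quasi-likelihood F-test of the mouse term beside genotype, added after the data were seen. At an adjusted p under 0.05, 110 of 10063 genes were called (1.09%), and 18 of the 34 members were among them. Hpx had an adjusted p of 0.00354, Apoa1 and Serpina1c 0.00676, Fgb 0.00878, Alb and Vtn 0.0138, Saa1 0.0139 and Apoe 0.0222. Also called were Serpina1a, Serpina1b, Serpina1d, Saa2, Itih4, Kng1, Apoa2, Ambp, Gc and Serpina3k, at 0.01001 to 0.0445. The span between the highest and the lowest mouse was 2.78 on the log2 scale for Hpx, 3.67 for Alb and 4.45 for Apoe.

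The 16 members not called in that test fell into a near and a far set. Fga, Serpina1e, Fgg, Ahsg, Ttr and Trf had adjusted p-values of 0.0535 to 0.0763. Apoc1 and Apoc3 were at 0.115 and 0.175, and Apoh, Plg, Hamp, Rbp4, Apob, Fabp1, Mup3 and Cyp2e1 at 0.343 to 0.958. The count depended on which mice were in the fit. It was 1 of 34 without mouse 5 (6 of 9739 genes in all), 8 without mouse 9 (10 of 9652) and 25 without mouse 7 (385 of 9712), and 13 to 17 without any other mouse. In those last fits 1018 to 1208 of all genes had an unadjusted p under 0.05.

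**Figure D4:**
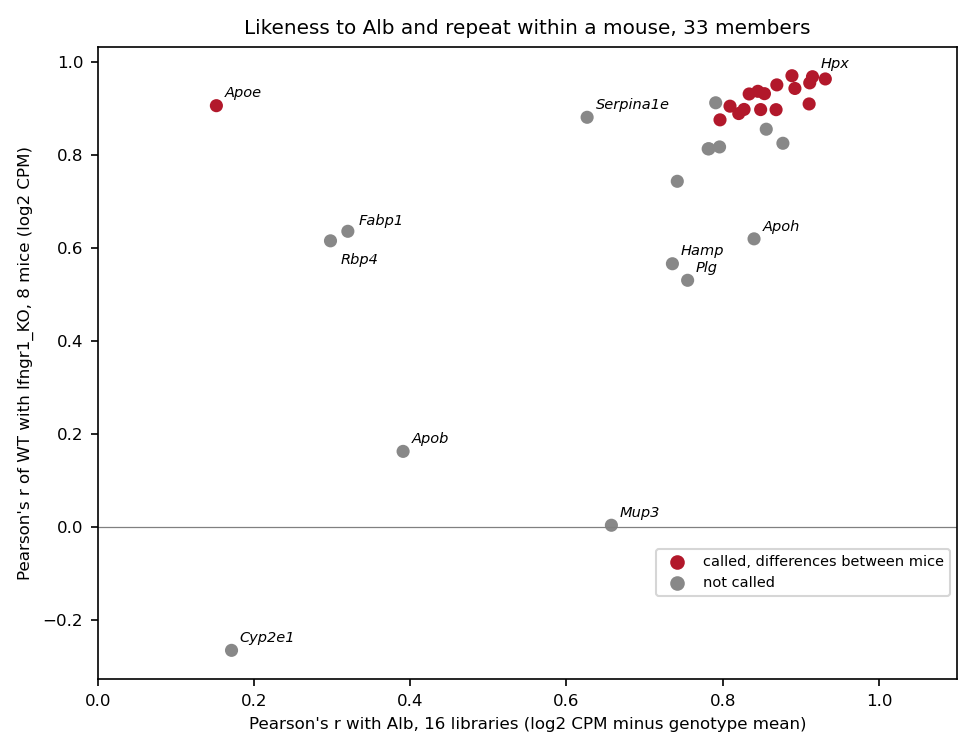
For 33 members, Pearson's r with Alb over 16 libraries against r of the WT with the Ifngr1_KO library over 8 mice, with members called in the test of differences between mice in red. Most members lie in the upper right, Apoe lies at 0.15 and 0.91, and Cyp2e1 at 0.17 and -0.26.

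The slope of each member on Alb, in log2 CPM per log2 CPM of Alb, was positive for all members but Apoe and Fabp1 in WT and for all but Cyp2e1 in Ifngr1_KO, and no slope passed the threshold in the edgeR quasi-likelihood test. Of 10062 genes tested 0 were called in either genotype (0%). In WT libraries 27 of 33 members had an unadjusted p under 0.05, beside 739 of all genes, and the lowest adjusted p was 0.0956. In Ifngr1_KO libraries it was 25 of 33 beside 201 of all genes, with a lowest adjusted p of 0.924. The median slope of the members was 0.66 in WT and 0.58 in Ifngr1_KO, against -0.01 for all genes in each. The median moved with the anchor gene and the libraries used. It was 0.89 in WT and 0.85 in Ifngr1_KO with Apoa1 in place of Alb, and 0.77 and 0.81 with Hpx. Without the 2 libraries of each genotype farthest from its median Alb level, it was 0.95 and 0.77.

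A slope of 1 is a change by the same factor as Alb. In WT, the slope was 0.81 (SE 0.11) for Hpx, 0.78 (SE 0.11) for Apoa1, 0.61 (SE 0.08) for Fgb, 0.55 (SE 0.10) for Trf and 0.41 (SE 0.11) for Ahsg. In Ifngr1_KO the same genes had 0.73 (SE 0.12), 0.66 (SE 0.16), 0.44 (SE 0.11), 0.35 (SE 0.14) and 0.47 (SE 0.14). Apoe had -0.07 (SE 0.38) in WT and 0.36 (SE 0.29) in Ifngr1_KO. In edgeR's test of the difference between the genotypes' slopes 0 of 33 members and 0% of all genes were called. At an unadjusted p under 0.05 there were 0 members. That fit had no block for the mouse, although each mouse gave 2 libraries. With the mouse as a block, 0 members were called, and 1 member and 316 of all genes had an unadjusted p under 0.05.

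The number of members called on Alb moved with the tool, the filter and the anchor gene. In WT, 9 of the 25 members tested were called among genes with a mean of at least 10 CPM. Of 33 members, 25 were called by DESeq2, 13 with Apoa1 as anchor and 11 with Hpx as anchor. In the same order, 394, 1204, 837 and 749 of all genes had an unadjusted p under 0.05. The members at that p were 23, 27, 27 and 27. In Ifngr1_KO, 6 were called by DESeq2, where 29 members and 442 of all genes had an unadjusted p under 0.05. Without mice 4 and 5 no member was called, and the median slope was 0.51 in WT and 0.43 in Ifngr1_KO, with 10 and 3 members at an unadjusted p under 0.05.

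The shared movement was measured between mice and hardly between the 2 libraries of a mouse. The Ifngr1_KO minus WT difference of Alb ran from -0.68 to 1.05 on the log2 scale, against a span of 3.67 between mice. Over the 8 mice, the r of a member's difference with that of Alb had a median of 0.05, and 4 of 33 members were over 0.5. With the mouse as a block over all 16 libraries, the median slope on Alb was 0.03 and 0 members were called. Members differed more between mice (median SD of the mouse means 0.90 on the log2 scale) than between the libraries of a mouse (median SD of the difference 0.45).

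The genotype comparison asks whether either set of neutrophils carried more of these transcripts. None of the 34 members was called in Ifngr1_KO against WT by edgeR's quasi-likelihood test with the mouse as a block, where 2.72% of all genes were called (2.25% lower, 0.477% higher). At an unadjusted p under 0.05 there were 4 members, beside 1624 of all genes. DESeq2 called 1 member, and in its test 5 members and 2407 of all genes had an unadjusted p under 0.05. The median log2 fold change of the members was 0.02, against 0.05 over all genes tested. Its sign depended on the mice: it lay between -0.07 (without mouse 7) and 0.01 when 1 mouse was left out, and below 0 without mouse 3, 4, 5, 7, 8 or 9. With library totals in place of TMM these became 0.13 and 0.16, so both moved by about the same amount.

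The 4 members were Apoe, Trf, Cyp2e1 and Plg. Apoe averaged 110.5 ± 60.2 CPM over WT libraries and 166 ± 118 CPM over Ifngr1_KO libraries (SD, n = 8; log2 fold change 0.58, SE 0.21, adjusted p = 0.2002) and higher in Ifngr1_KO in 7 of 8 mice. Trf was at 536 ± 245 and 409.9 ± 240.3 CPM (-0.43, SE 0.17, adjusted p = 0.223), lower in 7 of 8 mice. Cyp2e1 was at 3.51 ± 1.87 and 1.27 ± 0.971 CPM (-1.64, SE 0.64, adjusted p = 0.236), and it is the member that DESeq2 called (adjusted p = 0.0383). Plg, plasminogen, was at 19.03 ± 12.01 and 10.3 ± 8.41 CPM (-0.92, SE 0.37, adjusted p = 0.254).

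Members that followed Alb and had many counts had small standard errors. Alb itself had a log2 fold change of 0.12 (SE 0.18), Hpx 0.08 (SE 0.10), Apoa1 0.02 (SE 0.13) and Fgb 0.04 (SE 0.10). All 9 protease inhibitors lay below 0, from -0.42 (Serpina1e) to -0.12 (Serpina1b), with none called. The apolipoproteins ran from -0.43 (Apoh) to 0.58 (Apoe), and the acute phase group from 0.09 (Saa2) to 0.49 (Hamp). Without mouse 7, the values of Saa2, Ttr, Gc, Apoa1 and Rbp4 went from 0.09, 0.11, 0.02, 0.02 and 0.04 to -0.04, -0.07, -0.07, -0.04 and -0.16. Without mouse 8, Alb was at -0.0030, and other values near 0 changed sign without mouse 3, 4, 5, 8 or 9 (Rbp4, Apoa1, Gc and Fgg). Mup3 had the highest value, 0.82 with an SE of 1.34.

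**Figure D5:**
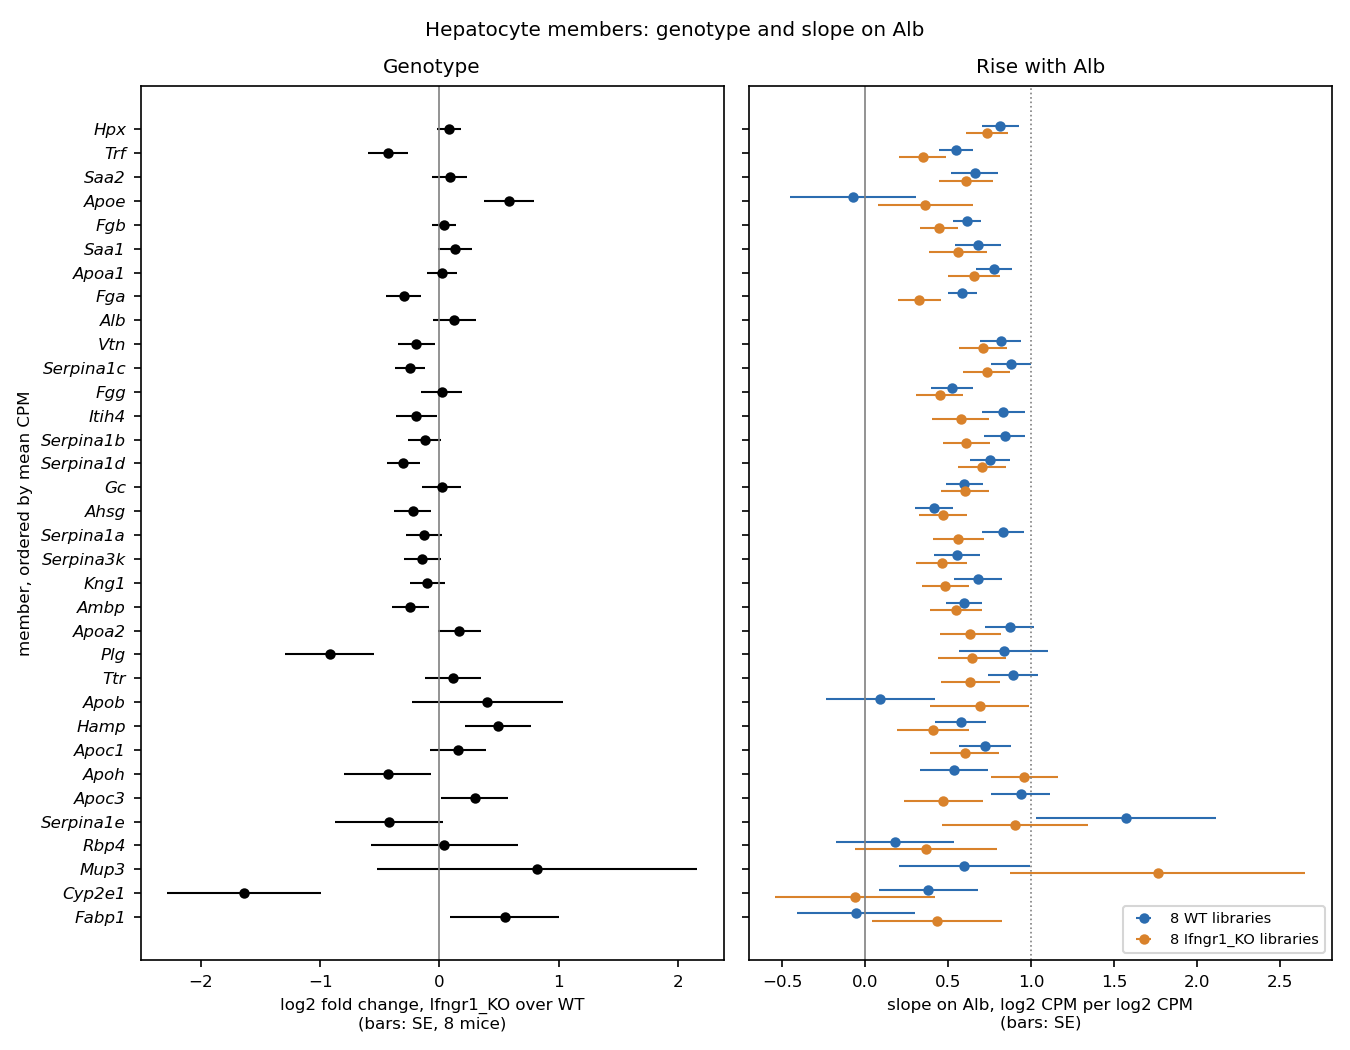
Left, log2 fold change of Ifngr1_KO over WT with SE for each of 34 members; right, slope on Alb with SE in 8 WT and in 8 Ifngr1_KO libraries for 33 members. Fold changes lie around 0 from -1.64 (Cyp2e1) to 0.82 (Mup3), and most slopes lie between 0 and the dotted line at 1.

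Other measures that moved with Alb over the 16 libraries were the TMM factor of the library (r = -0.79), the mitochondrial share (0.56) and the summed platelet markers (0.68, 4 of 8 markers tested, 2.16 to 21.4 CPM in WT and 3.91 to 14.6 CPM in Ifngr1_KO). Their part in the members' pattern was not tested. Called members between mice numbered 17 with library totals in place of TMM. There 1187 of all genes had an unadjusted p under 0.05, against 1197 with TMM. The total count of the library had r = -0.12 with Alb. The summed neutrophil markers had 0.11, the erythroid 0.21, the Kupffer cell markers 0.25 and the sinusoidal endothelial markers -0.36. In the endothelial list Stab1 had the most counts (38.9 CPM, r = -0.40). The median r of its 9 tested genes was -0.18, and Pecam1 (4.57 CPM) was at 0.68. Of 16 Kupffer cell markers 9 were tested; Vsig4 was at 0 in 16 libraries and Clec4f in 15, and Hmox1, the heme oxygenase that is also made by other inflamed cells, was the Kupffer-list gene nearest to Alb, at 0.67.

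Of the markers of other cells, edgeR called 4 by genotype, all lower in Ifngr1_KO: the macrophage receptor gene Adgre1, the B cell gene Ighm and the neutrophil granule genes Ngp and Ltf, by -1.11, -1.75, -0.64 and -1.08 on the log2 scale. None of the tested erythroid, platelet, T and NK cell, cholangiocyte, stellate or endothelial markers was called. Among those with the most counts were Hba-a2 and Hbb-bs (178 and 118 CPM), Pf4 and Itga2b (2.38 and 2.36), Nkg7 and Cd3d (4.30 and 3.02), Krt8 (3.34), Ecm1 and Bgn (20.2 and 1.80), and Stab1 and Egfl7 (38.9 and 8.20), in the order of those lists. The r of each with Alb was 0.27 or less, apart from Pf4 (0.62), Itga2b (0.60), Nkg7 (0.38) and Egfl7 (0.42).

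A list of 96 other hepatocyte genes, which holds none of the members, showed which further liver transcripts were read. Of the 96, 61 passed the count minimum. Of these 0 were called by genotype, where 2.72% of all genes were, and 3 between mice, where 1.09% were. The r with Alb was over 0.5 for 28 of the 61, over 0.8 for 5 and under 0 for 9, against 4.64% of all genes over 0.5. Sorted by general knowledge after the values were seen, 37 of 45 secreted plasma proteins passed the minimum, with a median r of 0.66 and a median level of 8.59 CPM. Of 51 enzymes, transporters and transcription factors 24 passed, with a median r of 0.25 and a median level of 3.02 CPM; the part of the lower counts in the lower r was not tested. Among the enzymes, Hsd11b1, which activates glucocorticoids, was at 104 CPM (r = 0.09) and Asl, of the urea cycle, at 30.002 CPM (r = 0.24). Of the 24, 2 had r over 0.5, Ces3a (5.28 CPM, r = 0.68) and Gnmt (4.66 CPM, r = 0.54). The 4 list genes at 0 in all 16 libraries included the secreted major urinary proteins Mup7 and Mup17. Otc, a urea cycle enzyme, and the transcription factor Foxa1 were the others, and Slc2a2, the liver glucose transporter, was at 0 in 15. These genes were named after their values were seen. Mup3 shares 30.1% of its 31-base words with other genes, and the sharing of Mup7 and Mup17 was not measured. Reads of Mup7 and Mup17 may have been counted for a related gene.

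The list genes with the most counts were Hp and Lrg1, at 3887 and 1743 CPM. Hp, haptoglobin, a hemoglobin scavenger that is also stored in neutrophil granules, had r = 0.79 with Alb and a slope of 0.23 in WT. Lrg1, a glycoprotein also known from neutrophil granules, had r = -0.10 with Alb and 0.95 with Apoe.

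Among all genes outside the members, the 8 most like Alb were Serping1 (r = 0.92), Apof (0.91), Dbp (0.89), Apoc4 (0.88), Orm1 (0.88), Hgfac (0.87), 1300017J02Rik (0.85) and Serpina3n (0.85). Serping1 is the C1 inhibitor, Apof and Apoc4 are apolipoproteins, Orm1 is an acute phase glycoprotein, Serpina3n is a protease inhibitor and Hgfac is the activator of hepatocyte growth factor. Dbp, a clock transcription factor, was read at only 1.79 CPM.

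Apoe had a different set of neighbours. In a search added after the values were seen, the genes most like it over the 16 libraries were Tor2a (r = 0.97), Lpcat2 (0.96), Ddost (0.95), Ube2s (0.95) and Lrg1 (0.95). Their r with Alb was 0.15, 0.06, 0.07, 0.01 and -0.10. Lpcat2, a lysophospholipid acyltransferase, was at 583 CPM and Ube2s, a ubiquitin-conjugating enzyme, at 33.4 CPM. Of the summed lists, the other hepatocyte genes (a sum that holds Lrg1) had r = 0.64 with Apoe, the erythroid markers 0.48, the platelet markers 0.28 and the Kupffer cell markers -0.22, and the other 6 lists lay between -0.32 and -0.03. Taken gene by gene, the median r with Apoe was -0.02 in the other hepatocyte list and 0.44 in the erythroid list.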

How the data were processed

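The authors deposited estimated counts as whole numbers, 1 column for each of 16 samples and 1 row per Ensembl gene; per the submitters' processing notes, the authors used Salmon 0.14.2, DESeq2 1.22.1 and build mm10. The use made of DESeq2 and the transcript set is not given in the sources used here, and the whole numbers were read as rounded estimates. Names came from GENCODE for mm10, promoters from RefSeq. The members and lists were chosen with earlier results of these data known.

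Genes with at least 10 counts in at least 8 libraries (10063, holding 99.8% of counts) were fitted in R 4.3.3 with edgeR 4.0.16 (TMM, robust quasi-likelihood), and p-values were adjusted by Benjamini-Hochberg over all of them at 0.05. Genotype was tested with the mouse as block, because the series text says that both libraries of a number came from 1 mouse; deviations correlated at 0.135 on average within mice (0.0234 to 0.310) and -0.0177 between. Slopes used log2 CPM of Alb within each genotype. log2 CPM had a prior count of 2. Members were named with their values in every sample for Alb, the 8 highest by CPM and the 4 with the lowest r with Alb; the 8 other genes most like Alb were named, and up to 3 called genes, or 2 by level, of each list; a few genes are not reported here. Alternatives were DESeq2 1.42.0, other scalings, filters, anchor genes and samples. The edgeR tests were tested on simulated data. No library was left out. Libraries carry no molecular identifiers, so counts include PCR copies (13 cycles).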

Additional observations from a re-analysis of the deposited data

Results flagged for a closer look

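Plg in the WT library of mouse 2 lay apart from the other WT libraries, at 2.42 CPM against 12.8 to 42.8 CPM in the other 7. The gap took up 0.546 of the range of log2(CPM + 1) over the 8 libraries. It was the only value flagged as a sample far from its group among 68 groups of 8 libraries (34 members in each genotype), and chance flags about 1 in 20 groups. In the Ifngr1_KO library of the same mouse Plg was at 4.39 CPM.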

How the results depend on the processing

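In the genotype comparison, edgeR called 0 members under every alternative run, and the DESeq2 Wald test called 1. With no replicate block, 0 members were called. For the slope on Alb in WT libraries, 0 members were called as reported. Among genes with a mean CPM of at least 10, 9 of the 25 members tested were called. It was 25 with DESeq2, 13 with Apoa1 in place of Alb and 11 with Hpx in place of Alb (added after seeing the data). In Ifngr1_KO libraries, DESeq2 called 6. For these runs the number of all genes at an unadjusted p under 0.05 is given above. With the mouse as replicate block over 16 libraries, 0 members were called on Alb in either direction, and 0 in the test of the slope difference. With the counts of both libraries of a mouse summed, 0 were called, with a lowest adjusted p of 0.0511. Leaving out each mouse called 0 members by genotype or slope, and 1 (mouse 5) to 25 (mouse 7) members between mice, with 8 without mouse 9. The cause was not tested. No called value changed sign; values not called changed sign in 18 cases for genotype, 31 and 22 for the WT and Ifngr1_KO slopes and 32 for their difference. Mup3, Fabp1, Cyp2e1 and Rbp4 had the lowest CPM of the members tested, and the part of depth in their values was not tested.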
